A study of Mus musculus with 4 samples.

Results

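The genes described are neutrophil chemokines and genes typical of granulocytes, and they were chosen by name: Cxcl1, Cxcl2, Cxcl5, Cx3cl1, Lcn2, Csf3r, S100a8, S100a9, Mmp9 and Cxcr2. Of these 10 genes, 8 were measured, out of 16218 genes in all, and Cxcl2 and Cxcr2 were not analysed here. RNA was sequenced from thyroids of NOD.H-2h4 mice, a strain that is prone to autoimmune thyroiditis. In the anti-PD-L1 group (2 libraries) the mice had received a monoclonal antibody against PD-L1, which restrains T cells by binding PD-1. In the IgG group (2 libraries) they had received an isotype control antibody, and in both groups injections were given 3 times a week for 2 weeks. The labels name no transgene and give no age or sex. They hold a batch entry whose text differs in every library, so that entry and the library cannot be told apart. Whether its text stands for different antibody clones is not known. The 10 names were put together with the anti-PD-L1 and IgG values of this same comparison known, so the differences between groups below are a description and support nothing beyond the values.

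Neutrophils are short-lived phagocytes that leave the blood along gradients of CXC chemokines carrying the ELR motif. In the mouse, CXCL1, CXCL2 and CXCL5 are such ligands and act through the receptor CXCR2, while CX3CL1 (fractalkine) is a membrane-anchored chemokine whose receptor CX3CR1 is carried mostly by monocytes, macrophages and some lymphocytes. G-CSF drives the formation and release of neutrophils through its receptor, the product of Csf3r. Neutrophils store the calcium-binding proteins S100A8 and S100A9 (the subunits of calprotectin), the iron-withholding protein lipocalin 2 (Lcn2) and the gelatinase MMP9, but epithelia can also make lipocalin 2, S100A8, S100A9 and ELR chemokines.

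The sequences before the starts of 5 of these genes are shown because they stand for the patterns found: Csf3r had its higher values with anti-PD-L1, Cxcl1 its lower ones, and Lcn2, S100a8 and S100a9 were highest in 1 IgG library. Each is the 250 bases before the RefSeq gene start on GRCm38.p6, 5′ to 3′ on the gene's strand. Capitals mark matches on either strand to an NF-kB-type motif (GGGNNTTTCC), a PU.1-type motif (GAGGAA) or a C/EBP-type motif (TTGCNNAA), which do not overlap one another in these windows.
Cxcl1: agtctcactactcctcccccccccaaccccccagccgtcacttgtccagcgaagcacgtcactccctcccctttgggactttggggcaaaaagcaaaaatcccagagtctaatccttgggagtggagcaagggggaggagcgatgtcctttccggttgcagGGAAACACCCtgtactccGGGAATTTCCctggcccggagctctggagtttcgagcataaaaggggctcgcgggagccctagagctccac
Csf3r: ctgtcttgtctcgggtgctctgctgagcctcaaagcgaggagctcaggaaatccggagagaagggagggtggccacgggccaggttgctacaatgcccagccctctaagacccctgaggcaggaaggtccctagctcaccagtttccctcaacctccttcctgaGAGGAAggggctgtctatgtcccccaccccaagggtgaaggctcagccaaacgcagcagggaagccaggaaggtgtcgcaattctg
Lcn2: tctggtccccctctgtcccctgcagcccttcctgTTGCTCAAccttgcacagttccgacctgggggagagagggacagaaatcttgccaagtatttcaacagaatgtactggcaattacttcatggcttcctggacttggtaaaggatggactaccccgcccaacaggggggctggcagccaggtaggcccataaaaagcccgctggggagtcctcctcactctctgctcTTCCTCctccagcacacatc
S100a8: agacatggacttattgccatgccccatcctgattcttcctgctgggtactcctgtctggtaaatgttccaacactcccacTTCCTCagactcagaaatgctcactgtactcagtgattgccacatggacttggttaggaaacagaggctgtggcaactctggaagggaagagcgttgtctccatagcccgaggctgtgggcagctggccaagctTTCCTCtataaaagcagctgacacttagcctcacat
S100a9: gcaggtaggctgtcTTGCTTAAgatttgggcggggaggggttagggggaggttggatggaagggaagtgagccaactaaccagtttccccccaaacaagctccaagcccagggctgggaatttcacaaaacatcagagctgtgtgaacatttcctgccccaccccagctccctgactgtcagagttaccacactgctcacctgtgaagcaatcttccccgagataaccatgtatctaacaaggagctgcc
The windows are chr5:90890995-90891244 (+) for Cxcl1, chr4:126024409-126024658 (+) for Csf3r, chr2:32387740-32387989 (−) for Lcn2, chr3:90668821-90669070 (+) for S100a8 and chr3:90695722-90695971 (−) for S100a9. These RefSeq starts differ in part from the GENCODE M21 gene coordinates given below. The Lcn2 window lies inside the GENCODE gene, and those of Cxcl1, Csf3r and S100a8 run past the GENCODE start. The motif letters were chosen after these sequences had been seen. The NF-kB-type motif began 89 and 71 bases before the start of Cxcl1, and 97 and 78 bases before that of Cxcl2, and was present in 1.41% of 32851 windows of this length. The PU.1-type motif was found in 23.3% of those windows. It occurred once each in Csf3r and Lcn2 and 2 times in S100a8, at 170 and 36 bases before the start. It also occurred 2 times in Cx3cl1, at 93 and 66 bases, and once in Cxcr2, at 81 bases, whose windows are not shown. The C/EBP-type motif, found in 9.56%, occurred once in Lcn2 and once in S100a9. A match is only a run of letters and was not tested as a binding site.

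Total counts per library were 75591923 and 77685257 with anti-PD-L1 and 79663374.5 and 77492328 with IgG, and 3 counts corresponded to 0.0377 to 0.0397 CPM (counts scaled to a common library total). The libraries differed in ways the groups do not explain. Anti-PD-L1 replicate 1 had 44667 CPM of Tg, the thyroglobulin gene of follicular cells, where the others had 148532 to 162488 CPM, its Xist, the RNA of the inactive X chromosome, was at 1.40 CPM, the others being at 67.7 to 72.7 CPM, and its Y-linked Ddx3y was at 62.6 CPM, the others being at 0.350 to 0.790 CPM. These 2 genes are at levels typical of a male in this library and of females in the other 3, and sex is not in the labels, so its part in every difference between groups was not tested. Tg and Pax8, which are typical of follicular cells, were detected in every library. Summed levels of 17 airway and mucosal gland markers were 27089 and 6292 CPM in anti-PD-L1 and 3595 and 15824 CPM in IgG. Those of 19 squamous epithelial markers were 6202 and 137 CPM in anti-PD-L1 and 13852 and 3852 CPM in IgG. Values are therefore given for each library, and the differences also with each library left out. Nothing in the labels says that libraries came from separate animals beyond their numbering, so errors measure the spread between these libraries.

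The measured genes did not move as one group. Csf3r had both anti-PD-L1 values above both IgG values, Cxcl1, Cxcl5 and Cx3cl1 had both below, and the groups overlapped for Lcn2, S100a8, S100a9 and Mmp9. Of all 16217 genes tested, 16.5% likewise had anti-PD-L1 above IgG without overlap and 13.1% had it below. With edgeR's quasi-likelihood test adjusted over all genes, 0 of the 8 passed the 0.05 threshold, as did 0% of all genes in either direction. The smallest adjusted p among the 8 was 0.429 for Csf3r, and 2 of them had an unadjusted p under 0.05 (Csf3r higher, where 4.96% of all genes were, and Cxcl1 lower, where 1.1% were). DESeq2 called 1 of the 8, Csf3r (DESeq2 adjusted p = 0.0422), where it called 2.93% of all genes higher and 0.327% lower. Because this comparison was known when the genes were chosen, nothing further is read from these counts.

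**Figure D1:**
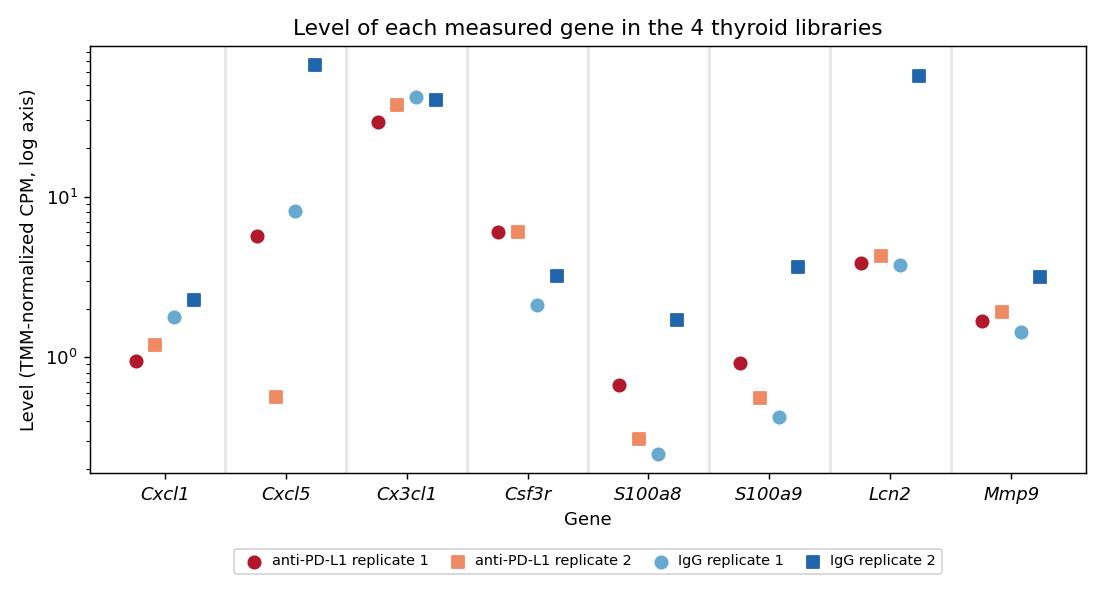
Level of the 8 measured genes (TMM-normalized CPM, log axis) in each of the 4 libraries, with 1 point per library and no averaging. Csf3r is higher in both anti-PD-L1 libraries, and IgG replicate 2 is the highest point for Cxcl1, Cxcl5, Lcn2, S100a8, S100a9 and Mmp9.

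How genes entered the table bears on these values. Each listed gene reached 100 counts in at least 1 library. Csf3r, Cx3cl1, Lcn2 and Mmp9 reached 100 counts in all 4 libraries and Cxcl5 in 3. Cxcl1 did so in the 2 IgG libraries alone, and S100a8 and S100a9 in IgG replicate 2 alone. Cxcl1 was thus listed through the IgG group and the calprotectin genes through 1 IgG library, and a gene at a low level in every library would not have appeared.

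Among the ligands, Cxcl1, which attracts neutrophils (chromosome 5, 90891241 to 90893115 of GRCm38), had 0.939 and 1.18 CPM with anti-PD-L1, against 1.78 and 2.27 CPM in the IgG libraries. These rest on 69 and 96 counts in anti-PD-L1 and 142 and 173 counts in IgG. The groups did not overlap, and the libraries of a group lay within 1.26-fold of each other for anti-PD-L1 and 1.28-fold for IgG. The log2 fold change, anti-PD-L1 over IgG, was −0.93 ± 0.31 (SE, n = 2 per group), and leaving out single libraries gave −1.12 to −0.74.

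Cxcl5, an ELR chemokine that epithelial cells also secrete (chromosome 5, 90759360 to 90761624), had 5.69 and 0.568 CPM with anti-PD-L1, against 8.19 and 66.0 CPM in the IgG libraries. IgG replicate 2 held 82.0% of the summed level of the 4 libraries. The spread inside each group was of the same order as the difference between groups, with anti-PD-L1 replicate 1 being 10.0-fold above replicate 2 and IgG replicate 2 being 8.05-fold above replicate 1. The log2 fold change was −3.57 ± 1.53 (SE, n = 2 per group). It was −1.39 without IgG replicate 2, −6.02 without anti-PD-L1 replicate 1, −2.73 without anti-PD-L1 replicate 2 and −4.42 without IgG replicate 1. Anti-PD-L1 replicate 1 and IgG replicate 1 lay closest to each other, at 5.69 and 8.19 CPM.

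Cx3cl1, the fractalkine gene (chromosome 8, 94772009 to 94782427), had 29.2 and 37.5 CPM with anti-PD-L1, against 41.9 and 40.0 CPM in the IgG libraries. Its 2149 to 3348 counts per library make it a deeply counted member with little counting error. The groups did not overlap, but anti-PD-L1 replicate 2 lay only slightly below the IgG libraries. The log2 fold change was −0.29 ± 0.18 (SE, n = 2 per group), and it was −0.12 without anti-PD-L1 replicate 1 and −0.50 without anti-PD-L1 replicate 2. Tg was low in the same anti-PD-L1 library in which Cx3cl1 was lowest, and the part of this in the Cx3cl1 value was not tested. The receptor gene Cx3cr1, no member of the group, went the other way, at 45.5 and 60.1 CPM in anti-PD-L1 against 15.2 and 19.8 CPM in IgG (log2 fold change 1.59 ± 0.23, edgeR adjusted p = 0.201, DESeq2 adjusted p = 1.67e-05).

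The receptor gene Csf3r (chromosome 4, 126024550 to 126044440) encodes the G-CSF receptor, which neutrophils and their precursors carry and which monocytes also express. It had 6.04 and 5.99 CPM with anti-PD-L1, against 2.13 and 3.20 CPM in the IgG libraries. The anti-PD-L1 libraries were nearly equal, on 444 and 485 counts, while the IgG libraries, on 170 and 244 counts, differed 1.51-fold. The level was 2.26-fold higher in anti-PD-L1, or 1.17 ± 0.29 on the log2 scale (SE, n = 2 per group). Leaving out single libraries gave 0.89 to 1.499. In these whole-thyroid libraries a change in the number of cells of a type and a change in RNA per cell cannot be told apart.

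The calprotectin genes rested on few counts. S100a8 (chromosome 3, 90668978 to 90670035) had 0.667 and 0.309 CPM with anti-PD-L1, against 0.250 and 1.71 CPM in the IgG libraries, on 49 and 25 counts in anti-PD-L1 and 20 and 130 counts in IgG. The exact 95% Poisson interval, which covers counting error only, was 0.153 to 0.386 CPM in IgG replicate 1 and 1.43 to 2.03 CPM in IgG replicate 2. The difference between the IgG libraries was therefore larger than counting error. S100a9 (chromosome 3, 90692632 to 90695721) had 0.925 and 0.555 CPM in anti-PD-L1, against 0.425 and 3.62 CPM in IgG, with 95% Poisson intervals of 0.294 to 0.594 CPM in IgG replicate 1 and 3.21 to 4.08 CPM in IgG replicate 2.

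The pair followed each other across the libraries. IgG replicate 2 was highest for both, then anti-PD-L1 replicate 1, anti-PD-L1 replicate 2 and IgG replicate 1. Per kilobase of exon, the S100a9 level was 1.85 and 2.39 times that of S100a8 in the anti-PD-L1 libraries and 2.26 and 2.82 times in the IgG libraries. The groups overlapped for both genes, with log2 fold changes of −1.004 ± 1.01 for S100a8 and −1.45 ± 1.05 for S100a9 (SE, n = 2 per group). Without IgG replicate 2 the values turned positive, at 0.95 for S100a8 and 0.80 for S100a9, and limma voom gave −0.52 and −0.78 with all libraries. Both genes lie on chromosome 3 on opposite strands, and no exon of either overlaps another gene in GENCODE M21.

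Lcn2, which encodes a siderophore-binding protein of neutrophil granules and of epithelia (chromosome 2, 32384633 to 32388252), had 3.87 and 4.29 CPM with anti-PD-L1, against 3.76 and 56.5 CPM in the IgG libraries. Both anti-PD-L1 libraries and IgG replicate 1 lay within a narrow range, and IgG replicate 2 was 13.2-fold above the highest of them, on 4303 counts. The log2 difference, −2.88 ± 1.28 (SE, n = 2 per group), thus rested on 1 library, and it was 0.12 without IgG replicate 2 and −3.81 to −2.81 without any other library. By limma voom it was −1.82.

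Mmp9, the gelatinase B gene (chromosome 2, 164940780 to 164955850), had 1.67 and 1.90 CPM with anti-PD-L1, against 1.44 and 3.15 CPM in the IgG libraries. IgG replicate 2 was again highest, 1.66-fold above the next library, and IgG replicate 1 was lowest. The log2 fold change was −0.36 ± 0.45 (SE, n = 2 per group), which is smaller than its error, and it was 0.31 without IgG replicate 2.

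**Figure D2:**
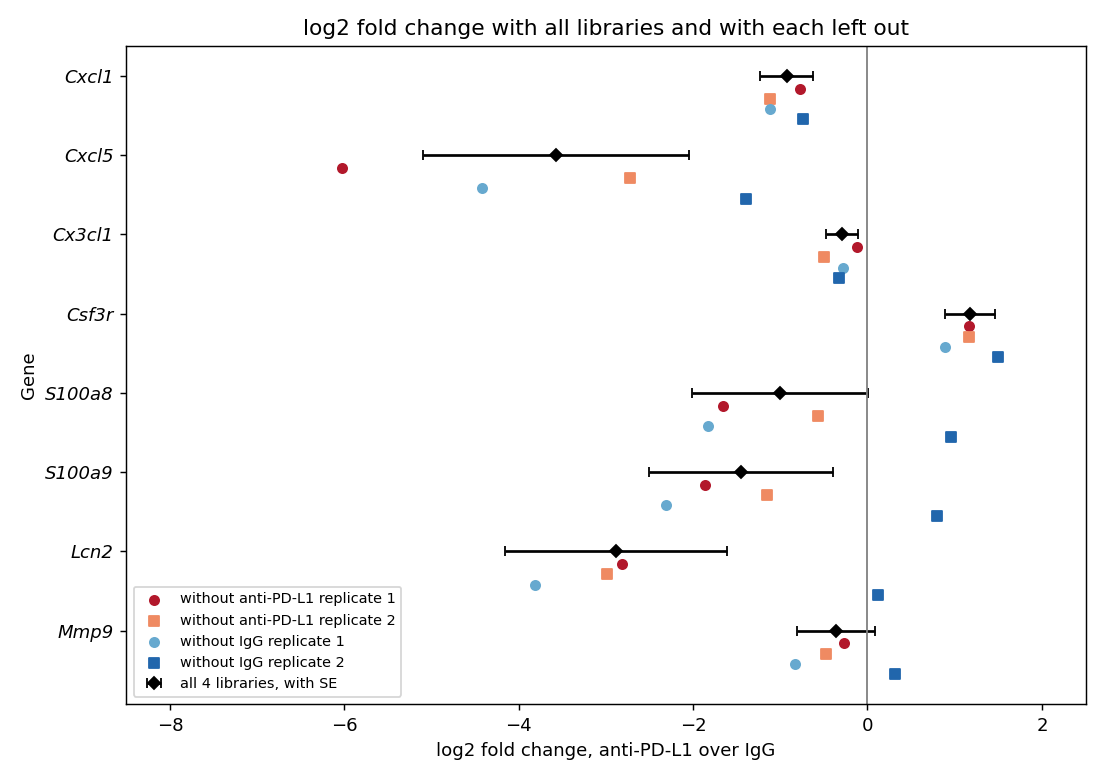
log2 fold change, anti-PD-L1 over IgG, of the 8 measured genes with all 4 libraries (diamonds, bars are the SE of the edgeR fit) and with each library left out (coloured points below each diamond). Without IgG replicate 2 the points of S100a8, S100a9, Lcn2 and Mmp9 lie above 0, while those of Cxcl1, Cxcl5 and Cx3cl1 stay below 0 and those of Csf3r above 0.

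In all, IgG replicate 2 stood more than 1.5 times above each other library for 5 of the 8 genes, Cxcl5, Lcn2, S100a8, S100a9 and Mmp9, as it did for 1.35% of all tested genes. S100a8 and S100a9 reached 100 counts in IgG replicate 2 alone. These 2 were thus listed through that library and cannot be set against this share. The height of IgG replicate 2 was noticed in the same values and is a description. Leaving out IgG replicate 2 changed the sign of 4 of the 8 log2 fold changes, and leaving out any other library changed none. Per kilobase of exon, levels in IgG replicate 2 ran from 35.4 CPM per kb for Cxcl5 and 21.5 CPM per kb for Lcn2 through 10.2 for Cx3cl1 and 6.94 for S100a9 to 0.891 for Mmp9 and 0.888 CPM per kb for Csf3r. Per kilobase, Cxcl5 was 6.10 and 0.482 times the level of Cxcl1 with anti-PD-L1 and 4.64 and 29.2 times with IgG. In the anti-PD-L1 libraries Cx3cl1 had the highest level per kilobase, at 7.44 and 9.55 CPM per kb, and Cxcl5 had 3.05 and 0.305 CPM per kb. In IgG replicate 1 the order was led by Cx3cl1 (10.7 CPM per kb) and Cxcl5 (4.40 CPM per kb).

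Genes of most similar pattern were sought by the root mean square difference in log2 CPM, centred on the mean of the 4 libraries. Closest to Lcn2 were Cd177, a surface glycoprotein gene of neutrophils, Sftpd, the gene of the lung collectin surfactant protein D, and Prss30, a serine protease gene (differences of 0.32, 0.46 and 0.47 log2 units). Cd177 had 37.1 and 29.7 CPM in anti-PD-L1 and 19.6 and 346 CPM in IgG, and Prss30 had 3.28 and 1.70 CPM in anti-PD-L1 and 3.21 and 48.5 CPM in IgG. Closest to S100a8 were Tctex1d4, Saxo2 and Cr2 (0.24 to 0.26 log2 units), and closest to S100a9 were Rnf186, Cdh26 and Tctex1d4 (0.18 to 0.28 log2 units). Of the members themselves, S100a8 and S100a9 were the closest pair (0.22 log2 units).

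Cxcl5 had no close neighbour, the nearest being Lce1b, Lce3c and Wfdc12 (0.87 to 0.91 log2 units), of which the Lce genes encode proteins of the cornified envelope of squamous epithelium. Csf3r was matched by Nxpe3, by Cd247, the gene of the T cell receptor zeta chain, and by Ptger4, a prostaglandin E2 receptor gene (0.038 to 0.058 log2 units). Ptger4 had 8.32 and 9.11 CPM in anti-PD-L1 and 2.95 and 4.49 CPM in IgG. Closest to Cxcl1 were Kcna6, Lrrc55 and Epyc (0.073 to 0.091 log2 units), closest to Mmp9 were Astn2, Acox2 and Plxnb3 (0.043 to 0.050), and closest to Cx3cl1 were Allc, Wdr91 and Abca5 (0.0069 to 0.019). With 4 libraries and 16217 genes, close matches are common, and the likeness carries no test.

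Markers narrower to neutrophils were mixed. Of 23 neutrophil markers 12 were measured, and Ly6g, Elane, Ngp, Mmp8 and Retnlg, which define the cell type, were not among them. Mpo, the myeloperoxidase gene, had 1.13 and 1.53 CPM in anti-PD-L1 and 1.51 and 1.46 CPM in IgG. Ctsg, the cathepsin G gene, had 1.96 and 2.15 CPM in anti-PD-L1 and 2.28 and 2.05 CPM in IgG, and Camp, the cathelicidin gene, had 0.912 and 2.00 CPM in anti-PD-L1 and 1.84 and 1.67 CPM in IgG. These granule genes and Padi4 were lower in IgG replicate 2 than in IgG replicate 1. The other 8 of the 12 were higher there, as were 8117 of all 16217 tested genes. The median log2 ratio of the 12, IgG replicate 2 over replicate 1, was 1.20, against 1.95 for the 8 members and 0.00011 over all tested genes. In IgG replicate 2, 2 of the 12, Cd177 and Clec4e, stood more than 1.5 times above each other library, as did 1.35% of all tested genes. Clec4e had 0.721 and 0.555 CPM in anti-PD-L1 and 0.338 and 1.42 CPM in IgG. It reached the count needed for listing in IgG replicate 2 alone. Clec4e was thus listed through that library and cannot be set against the share of all tested genes. Ltf, the lactoferrin gene, which mucosal glands also express, had 13432 and 5800 CPM in anti-PD-L1 and 2342 and 9299 CPM in IgG, and Ltf alone made up most of the list's summed level of 14152 and 5992 CPM in anti-PD-L1 and 2561 and 10181 CPM in IgG. The list's median log2 fold change was −0.026. This median ranged from −0.21 without anti-PD-L1 replicate 1 to 0.84 without IgG replicate 2. Anti-PD-L1 lay above IgG without overlap for 1 of the 12 genes and below for 0. Over all genes the shares were 16.5% above and 13.1% below.

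Levels of other epithelia moved with the members in part. Of 18 airway and mucosal gland markers 17 were measured. In IgG replicate 2, 16 of them were higher than in IgG replicate 1, as were 8117 of all 16217 tested genes. Bpifa1, a secreted airway protein gene, had 2803 and 1803 CPM in anti-PD-L1 and 337 and 3101 CPM in IgG, and Muc5b, a gel-forming mucin gene, had 745 and 205 CPM in anti-PD-L1 and 106 and 724 CPM in IgG. Of the 17, 5 stood more than 1.5 times above each other library in IgG replicate 2, as did Lcn2 and 1.35% of all tested genes. Against anti-PD-L1 replicate 1, which had 3.87 CPM of Lcn2, IgG replicate 2 was higher in 9 of the 17 but lower in their sum. Of the 19 squamous markers 17 were highest in IgG replicate 1, with Krt13 at 1441 and 4.32 CPM in anti-PD-L1 and 3808 and 999 CPM in IgG, and anti-PD-L1 replicate 2, where they were lowest, also had the lowest Cxcl5. The part of these tissues in the members' values was not tested.

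**Figure D3:**
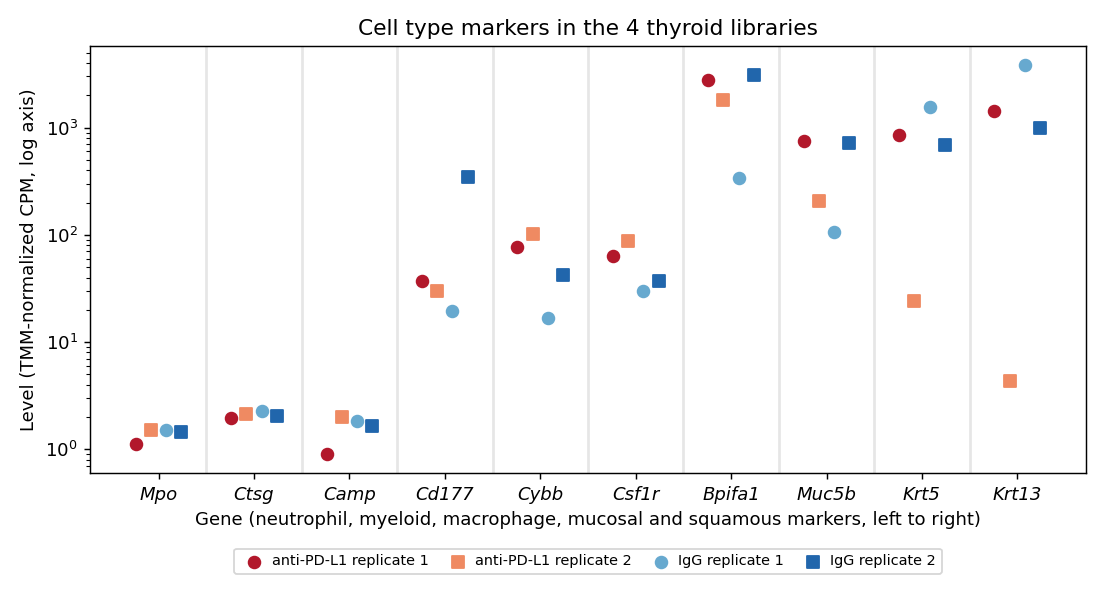
Level (TMM-normalized CPM, log axis) of 10 marker genes in each of the 4 libraries, with 1 point per library. Mpo and Ctsg lie between 1.13 and 2.28 CPM in every library, Cd177 and the mucosal genes vary between the IgG libraries, and the squamous keratins Krt5 and Krt13 are lowest in anti-PD-L1 replicate 2.

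Myeloid genes that neutrophils share with monocytes and macrophages had the direction of Csf3r. The lists of such genes and of macrophage markers were put together with earlier results of these data known, so their counts are a description. Of 16 shared myeloid genes, all measured, 14 (87.5%) had anti-PD-L1 above IgG without overlap, as did 16.5% of all genes, and 0 below. Their median log2 fold change was 1.64, against 0.00021 over all tested genes, and edgeR called 0 and DESeq2 11 of them higher, where DESeq2 called 2.93% of all genes higher. Cybb, the catalytic subunit gene of the phagocyte oxidase, had 76.9 and 102 CPM in anti-PD-L1 and 16.8 and 42.3 CPM in IgG. Of 16 monocyte and macrophage markers 13 had both anti-PD-L1 libraries above, with a median of 1.93 (edgeR 0 called, DESeq2 12), and Csf1r, the receptor that defines the lineage, had 63.5 and 87.8 CPM in anti-PD-L1 and 29.7 and 36.9 CPM in IgG. These lists' summed levels, less their 2 most abundant genes, were 553 and 552 CPM in anti-PD-L1 and 174 and 247 CPM in IgG for the shared myeloid genes. For the macrophage markers they were 696 and 665 CPM in anti-PD-L1 and 226 and 296 CPM in IgG, and the part of such cells in the Csf3r value was not tested.

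**Figure D4:**
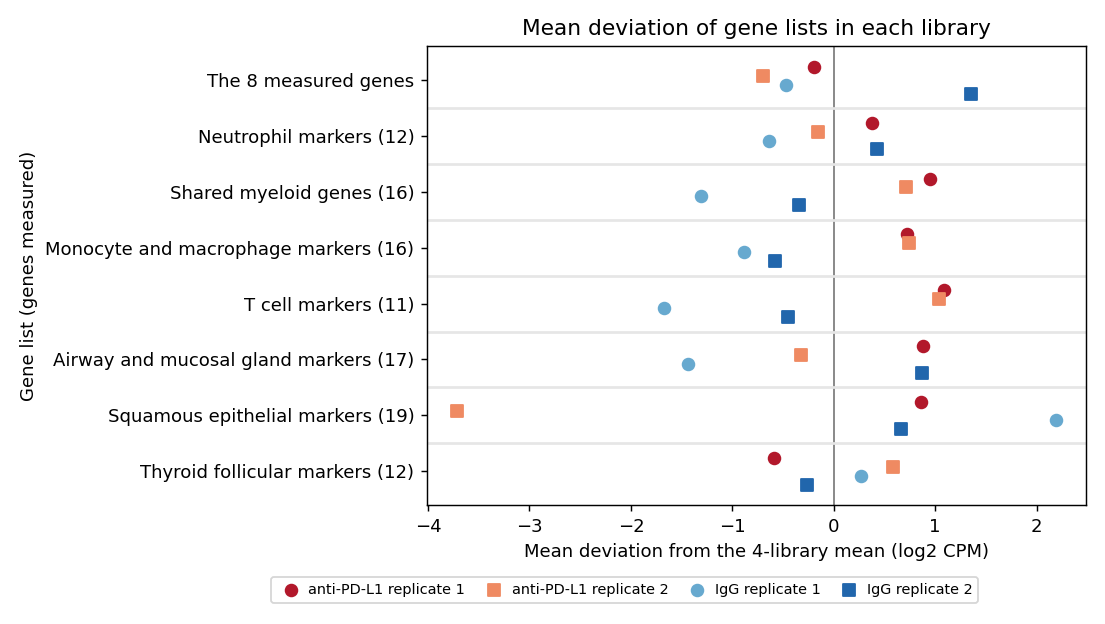
Mean deviation of the genes of each list from their 4-library mean (log2 CPM), with 1 point per library. The 8 measured genes together are highest in IgG replicate 2 (1.35), whereas the shared myeloid genes, macrophage markers and T cell markers are above 0 in both anti-PD-L1 libraries and below 0 in both IgG libraries.

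The other genes of the pathway were taken from lists put together with earlier results of these data known, so their counts are a description. Of any list, edgeR called 0 genes. The counts of genes above or below IgG without overlap are to be read against 16.5% above and 13.1% below over all genes. Those called by DESeq2 are to be read against 2.93% called higher and 0.327% called lower over all genes. Among 10 other neutrophil-attracting and CXC ligands, the median log2 fold change was 0.16, with 2 having both anti-PD-L1 libraries above, near the share of all genes, and 0 below. Cxcl16, a transmembrane ligand of CXCR6, was 1 of these, at 78.7 and 64.4 CPM in anti-PD-L1 and 27.3 and 25.3 CPM in IgG (DESeq2 adjusted p = 8.56e-08, edgeR adjusted p = 0.17). Cxcl3, an ELR chemokine with its gene beside those of Cxcl1 and Cxcl2 in the mouse, had 0.585 CPM and a blank in the anti-PD-L1 libraries and 1.76 and 0.578 CPM in the IgG libraries, and was named after its values were seen. Among receptors for neutrophil attractants 10 of 13 were measured, with a median of 1.40, 6 above and 0 below, and DESeq2 called 4 higher. The median was 0.84 without IgG replicate 1 and 1.78 without IgG replicate 2. Cx3cr1, carried mostly by monocytes, macrophages and some lymphocytes, is in this list, among the 6 above and the 4 called. It is also counted among the partners of the members and the macrophage markers, and Ackr1 also among the partners. C3ar1, the receptor for the complement fragment C3a, had 17.2 and 22.2 CPM in anti-PD-L1 and 4.94 and 5.69 CPM in IgG. Fpr2, a formyl peptide receptor gene named after its values were seen, had 2.18 and 1.91 CPM in anti-PD-L1 and 0.413 and 0.538 CPM in IgG. Fpr2 reached 100 counts in the anti-PD-L1 libraries alone and Cxcl3 in IgG replicate 1 alone, so each was listed through that group. The other of the 2 ligands above was Ccl3, named after its values were seen. It had 1.66 and 1.01 CPM in anti-PD-L1 and 0.0750 and 0.0525 CPM in IgG. Ccl3 reached 100 counts in anti-PD-L1 replicate 1 alone and was likewise listed through its group.

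Among growth and transcription factors of granulocytes and their receptors 12 of 15 were measured, Csf3 (G-CSF) not being among them, and the median was 0.50, with 9 above, 0 below and 3 called higher by DESeq2. The median was 0.84 without IgG replicate 2. Over all genes, 16.5% were above and 13.1% below, and DESeq2 called 2.93% higher and 0.327% lower. Csf2rb, the shared beta subunit of the GM-CSF receptor, had 42.3 and 39.8 CPM in anti-PD-L1 and 17.7 and 25.1 CPM in IgG. Csf2rb and Spi1, both called by DESeq2, are also counted among the shared myeloid genes. The 12 partners of the members (receptors, sheddases and inhibitors) had a median of 0.091, with 6 above and 0 below, and Timp3, an inhibitor of metalloproteinases, had 319 and 424 CPM in anti-PD-L1 and 459 and 396 CPM in IgG. In the list of IL-17, IL-1 and TNF signalling, pathways known to induce Cxcl1 and Lcn2, 16 of 23 genes were measured with a median of 0.029, 5 above and 4 below. Rela, an NF-kB subunit gene, had 68.2 and 72.4 CPM in anti-PD-L1 and 65.2 and 65.1 CPM in IgG. Zc3h12a, whose product Regnase-1 degrades inflammatory transcripts and which was named after its values were seen, had 11.6 and 8.13 CPM in anti-PD-L1 and 22.5 and 25.2 CPM in IgG, and was the 1 gene of this list that DESeq2 called (lower, DESeq2 adjusted p = 0.00109). The 13 measured of 14 other S100 genes had a median of −0.068, with 1 above and 1 below, and the 11 measured of 15 other metalloproteinases had a median of 0.057, with 2 above and 4 below. With single libraries left out, the medians of the last 3 lists took either sign, between −0.13 and 0.25 for the signalling list, −0.68 and 0.12 for the S100 genes and −0.19 and 0.08 for the metalloproteinases.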

How the data were processed

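RNA from 4 thyroids was poly(A)-selected and sequenced as paired reads, per the labels' protocols. The authors deposited expected counts per gene symbol, not normalized, and BWA and mm10 are named in the submitters' processing notes, with no role or version. How reads were counted and filtered, and whether by strand, is not given in the sources used here. Counts ended in 0.5 in at least 1 library for 3328 genes, 13 blank cells were read as 0, and counts were rounded for tests. edgeR 4.0.16 (R 4.3.3) used filterByExpr, TMM factors and the robust quasi-likelihood F test on group, two-sided, with Benjamini-Hochberg adjustment over 16217 genes. The SE is the absolute log2 fold change over the square root of F. DESeq2 1.42.0, limma 3.58.1 (voom) and the settings named in the closing section were alternatives. Steps were tested on simulated data. An exact permutation test of 2 against 2 libraries cannot go below p = 0.333, so none is given. All members and the 17 lists (7 of pathways, 10 of cell types) were chosen with earlier results of these data known. Named list genes are the 4 of highest mean CPM, and for each member the 3 genes of most similar pattern with a mean of at least 1 CPM. All others, among them Mpo, Ctsg, Camp, Padi4, Clec4e, Muc5b, Csf1r, Pax8, Ccr3, Prg2, Cpa3, Mmp25 and Il1b, were named after their values were seen. Coordinates are from GENCODE M21 (GRCm38, the assembly of mm10). Promoter sequences are from RefSeq on GRCm38.p6, which held 8 of the 10 genes. The remaining lists, of eosinophil, basophil and mast cell, endothelial, fibroblast, follicular and T cell markers, had median log2 fold changes of 0.29, −0.087, 0.13, 0.0023 and 2.12.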

Additional observations from a re-analysis of the deposited data

How the results depend on the processing

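With 2 libraries per group, edgeR called 0 genes in either direction, with 982 at an unadjusted p under 0.05. DESeq2 called 475 genes higher and 53 lower, and an adjusted p under 0.10 gave 15 higher in edgeR. Every other alternative (3 scalings, 2 filters, limma voom, a replicate block, single libraries left out, squamous and mucosal genes left out) also gave 0. The replicate block gave 0 calls higher and 0 lower, with log2 fold changes of −1.86 for Lcn2, −0.59 for S100a8 and −0.85 for S100a9. Beyond the numbers, the labels do not say whether libraries of equal replicate number were handled together. Deviations from the group means correlated at 0.0998 across genes between the groups, and with 2 libraries per group this value cannot decide that. Of 102 alternative values of the 8 genes, 7 moved by more than the spread between replicates, each with 1 library left out. Scaling moved the median of all genes to between −0.013 and 0.020 (log2). With single libraries left out, list medians ranged from −0.13 to 0.60 for eosinophil, basophil and mast cell markers, −0.27 to −0.020 for endothelial, −0.15 to 0.45 for fibroblast, −0.55 to 0.46 for follicular and 1.52 to 2.81 for T cell markers. S100a8 and S100a9 did not pass the stricter filter. Depth limits S100a8 most, at 20 counts in IgG replicate 1.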

Other observations

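Of 13 eosinophil, basophil and mast cell markers 8 were measured, Siglecf, Ear2, Mcpt8, Ms4a2 and Fcer1a not being among them. Of the 8, 3 had both anti-PD-L1 libraries above and 0 below, where 16.5% of all genes were above and 13.1% below. DESeq2 called 2 of the 8 higher, where it called 2.93% of all genes higher. Their mean deviation (log2 CPM) was 0.78 in anti-PD-L1 replicate 1 and −0.019 in replicate 2, against −0.53 and −0.23 in IgG. Ccr3, the eotaxin receptor gene of eosinophils, had 1.81 and 0.629 CPM in anti-PD-L1 and 0.0625 and 0.158 CPM in IgG (log2 fold change 3.46, DESeq2 adjusted p = 0.00901, edgeR adjusted p = 0.407). Prg2, which encodes eosinophil major basic protein, had 4.99 and 1.94 CPM in anti-PD-L1 and 0.338 and 0.748 CPM in IgG (DESeq2 adjusted p = 0.00793, edgeR adjusted p = 0.457). Ccr3 reached 100 counts in anti-PD-L1 replicate 1 alone, and Prg2 in the anti-PD-L1 libraries alone, so both were listed through that group. Epx, the eosinophil peroxidase gene, had 5.04 and 7.01 CPM in anti-PD-L1 and 4.77 and 3.90 CPM in IgG. The mast cell protease genes Cpa3, Mcpt4 and Cma1 had log2 fold changes between −0.007 and 0.30.

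Mmp25, a membrane-bound metalloproteinase gene of neutrophils, had 4.79 and 7.24 CPM in anti-PD-L1 and 0.775 and 1.55 CPM in IgG (log2 fold change 2.37, DESeq2 adjusted p = 0.000306, edgeR adjusted p = 0.291). Of the 12 measured neutrophil markers, Mmp25 was the only 1 with anti-PD-L1 above IgG without overlap, as 16.5% of all genes were. It was also the only 1 of the 12 that DESeq2 called, where DESeq2 called 2.93% of all genes higher. Il1b, the interleukin 1 beta gene, had 8.02 and 4.55 CPM in anti-PD-L1 and 0.725 and 4.53 CPM in IgG, a near tie between anti-PD-L1 replicate 2 and IgG replicate 2.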
